A study of Arabidopsis thaliana with 2 samples.

Results

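The 42 genes described here encode core parts of the cell division cycle and of DNA replication in Arabidopsis thaliana. They were taken by locus identifier from a list of known genes and not by a cut on their values in these ovules. The list was chosen with earlier results of these data known. All 42 had values among the 33557 identifiers with values in the deposited table. By their known roles they were placed in 3 groups, with 8 S-phase genes (MCM2 to MCM7, PCNA1 and PCNA2), 19 mitotic genes (B-type CDKs, B-type and A-type cyclins, AUR1, AUR2 and KNOLLE) and 15 G1 and G1/S control genes (CDKA;1, D-type cyclins, RBR1, E2FA to E2FC and KRP inhibitors). RNA was measured by Illumina sequencing in mature ovules of 2 genotypes with 1 library each. The myb98 library came from ovules of the myb98 mutant, which lacks normal function of MYB98, a regulator active in synergids, the companions of the egg cell that draw in pollen tubes. The allele is not named in the labels. The WT library came from unpollinated ovules of ms1, a male-sterile line, used in place of true wild type, so the libraries differ in more than MYB98. For both, the labels describe long days of 16 h light and 8 h dark, emasculation at floral stage 12 and hand collection 36 h later of the ovules of about 50 pistils, which were pooled. The text on emasculation is the same for both and names WT plants. With 1 library per genotype, no difference below has a replicate check, a standard error or a p-value.

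Entry into the plant cell cycle is controlled by D-type cyclins, which activate the kinase CDKA;1. The active kinase phosphorylates RBR1, the retinoblastoma-related repressor, and so releases E2F transcription factors, which drive genes for replication such as the MCM helicase subunits and the sliding clamp PCNA. KRP proteins inhibit CDKs. Entry into mitosis uses B-type CDKs with A- and B-type cyclins, and Aurora kinases and the syntaxin KNOLLE act in spindle function and in building the cell plate. In a mature ovule the gametophyte has finished its mitoses, while most of the tissue is maternal integument, nucellus and funiculus.

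Levels are given as FPKM, which divides the fragments of a gene by its transcript length and by library size. By the spacing of the lowest values the myb98 library held about 42600000 fragments and the WT library about 48500000. On that estimate the members had 29.7 to 6500 fragments in the myb98 library and 21.2 to 3591 in the WT library, so counting error was small for most of them, and the spread between libraries was not measured. MYB98 (AT4G18770) stood at 0.474 FPKM in the myb98 library and 1.35 FPKM in the WT library, or about 37.8 and 122 fragments, so it was lower under the myb98 label. All 6 ovule markers were expressed, with STK at 123 and 106 FPKM in the myb98 and WT libraries and INO at 28.4 and 29.6 FPKM. SHP1 (29.1 and 40.1 FPKM), SHP2 (30.6 and 39.2 FPKM) and BEL1 (3.47 and 4.94 FPKM) were lower in the myb98 library by 0.35 to 0.45 on the log2 scale. Of markers for endosperm after fertilization, 1 of 5 reached 1 FPKM, and their sum was 1.96 FPKM in the myb98 library and 1.495 FPKM in the WT library. PHE1 was listed at 0 in both. For pollen this was 1 of 4 markers, with sums of 1.36 and 1.59 FPKM and DUO1 at 0 in both. The 5 egg cell markers summed to 259 FPKM in the myb98 library and 222 FPKM in the WT library. EC1.5 alone of them passed the size rule given below, at 56.8 and 24.3 FPKM. The others were mixed, with EC1.2 (33.0 and 23.3 FPKM) and EC1.3 (57.7 and 53.0 FPKM) higher in the myb98 library. EC1.1 (62.7 and 68.9 FPKM) and EC1.4 (48.4 and 52.4 FPKM) were lower. Carpel wall and transmitting tract markers reached 1 FPKM in 4 of 5 cases. They summed to 43.7 FPKM in the myb98 library and 56.8 FPKM in the WT library, with HEC1 at 0 in both. Most of both sums came from ALC, at 36.9 FPKM in the myb98 library and 51.0 FPKM in the WT library. HEC3 was also lower in the myb98 library, while NTT and SPT were higher. The part of these marker differences in the results below was not tested.

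All 8 replication genes and 12 of 18 expressed mitotic genes had a higher value in the myb98 library, against 6 of 15 G1 control genes and 49.6% of all expressed genes. PCNA1 and CYCD3;3 rose, and no member fell. The call of CYCD3;3 is marginal and is lost with a pseudocount of 5 FPKM or against genes of like length. A gene was counted as risen or fallen where log2((myb98 FPKM + 1)/(WT FPKM + 1)) was 1 or more in size, which is 2-fold on that scale, among genes that reached 1 FPKM in at least 1 of the libraries. Of the 42 members 41 reached 1 FPKM, and of these 2 rose, 0 fell and 39 did not pass. Over all 16303 genes that reached it, 2.95% rose and 2.74% fell, so the count of members past the rule was close to the background. At a log2 ratio of 2 or more, 0 members rose and 0 fell, against 0.282% and 0.712% of all genes. The median log2 ratio was 0.36 for the S-phase group, 0.34 for the mitotic group and -0.06 for the G1 group, beside -0.0039 for all expressed genes. For scale, the log2 ratios of the 8732 genes with 5 FPKM or more in both libraries had an SD of 0.47 and quartiles of -0.24 and 0.30. Of the 41 members 15 lay above the upper of these quartiles, 6 below the lower and 20 between them. The members had a lower minimum, 1 FPKM in at least 1 library, so the sets compared are not alike in level. In these whole ovules, a change in the number of dividing cells and a change in RNA per cell cannot be told apart.

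**Figure D1:**
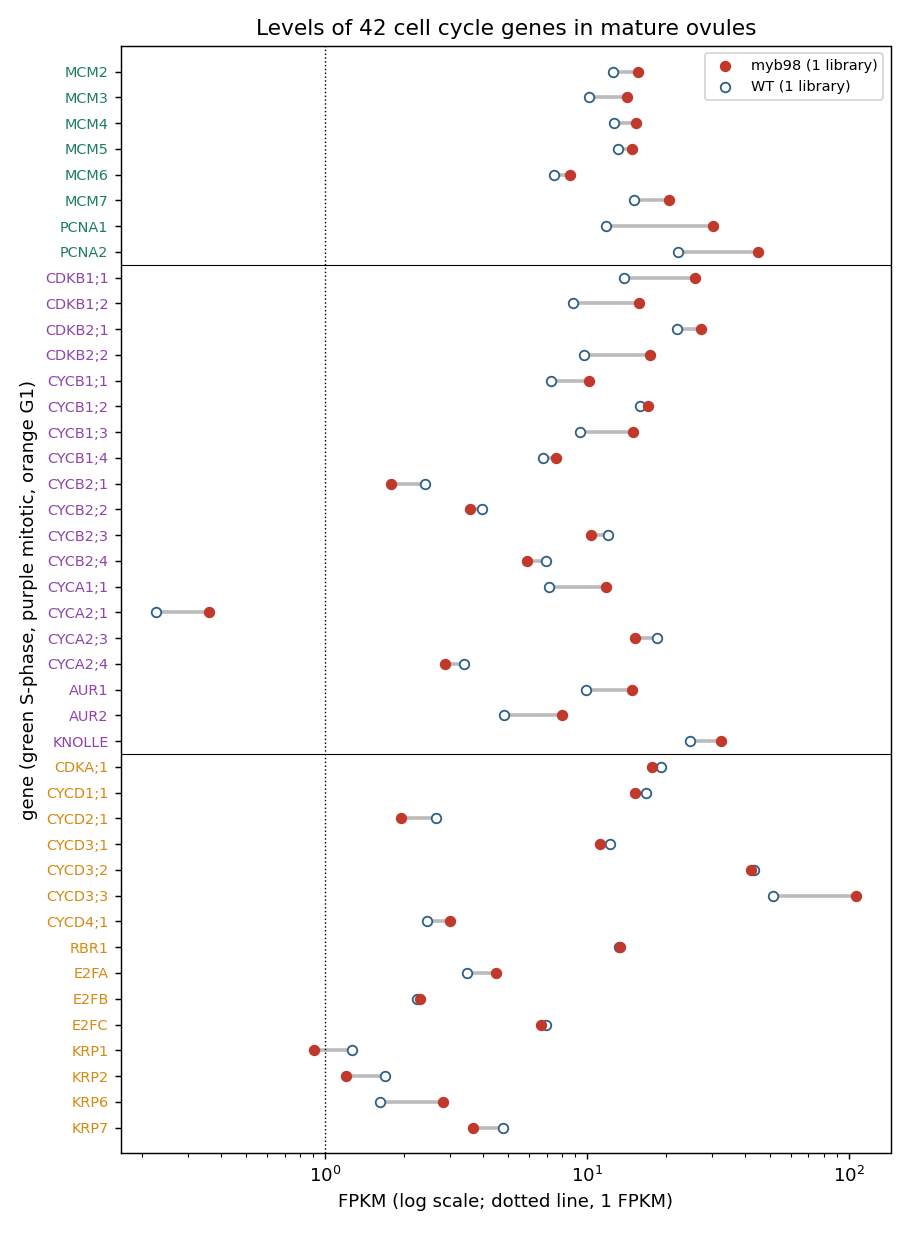
Level of each of the 42 genes in FPKM on a log axis, with filled points for the myb98 library and open points for the WT library, 1 library each. PCNA1, PCNA2 and CYCD3;3 have the widest gaps above 10 FPKM, and CYCA2;1 is the member under 1 FPKM in both libraries.

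The order of the members by level was much the same in both libraries (Spearman's rho 0.93 across the 42 genes, which share the same libraries). CYCD3;3 was the most abundant of them in both. In the myb98 library it was followed by PCNA2, CYCD3;2, KNOLLE and PCNA1, and in the WT library by CYCD3;2, KNOLLE, PCNA2 and CDKB2;1. PCNA1 ranked 5 of 42 in the myb98 library and 18 of 42 in the WT library. Among all expressed genes its level lay at percentile 90.6 in the myb98 library and 71.8 in the WT library. All 42 are annotated as protein-coding, and they lie on all 5 nuclear chromosomes. At least 5 FPKM was reached by 30 of them in the myb98 library and 29 in the WT library, and at least 20 FPKM by 8 and 5. The 42 genes summed to 640.0 FPKM in the myb98 library and 476 FPKM in the WT library, which is 0.236% and 0.170% of all FPKM in these libraries.

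Sliding clamp genes showed the largest difference among the replication members. PCNA1 (AT1G07370, chromosome 1, 2263037 to 2264553, plus strand, 4 exons, TAIR10.1) had 30.2 FPKM in the myb98 library and 11.8 FPKM in the WT library. This 2.57-fold rise gave a log2 ratio of 1.29, and the values correspond to about 1457 and 644 fragments. Its exons overlap those of no other annotated gene. PCNA2 (AT2G29570, chromosome 2, 12649906 to 12651753, minus strand, 4 exons) had 44.8 FPKM in the myb98 library and 22.2 FPKM in the WT library. Its log2 ratio of 0.98 lay just outside the rule, as that of CYCD3;3 at 1.03 lay just inside it. Both clamp genes encode PCNA, the ring that holds DNA polymerase on its template, and their transcripts are 85.7% identical over 788 nt, so some reads could be split between them. The end of PCNA2 overlaps 279 nt of exon of AT2G29560 on the opposite strand, a gene at 6.66 and 6.51 FPKM in the myb98 and WT libraries.

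The 6 MCM genes encode the ring-shaped helicase that unwinds DNA at the fork. All 6 stood higher in the myb98 library, and none passed the rule. MCM7 (AT4G02060) had 20.6 FPKM in the myb98 library and 15.0 FPKM in the WT library, and MCM3 (AT5G46280) had 14.2 and 10.2 FPKM. MCM2 (AT1G44900) had 15.7 and 12.6 FPKM, MCM4 (AT2G16440) 15.4 and 12.7 FPKM, and MCM5 (AT2G07690) 14.9 and 13.1 FPKM. MCM6 (AT5G44635) was the lowest, at 8.64 FPKM in the myb98 library and 7.46 FPKM in the WT library. The ratios ran from 1.14 for MCM5 to 1.39 for MCM3, with a median log2 ratio of 0.28, so subunits of 1 complex stayed in a narrow band. For MCM5 and MCM6 the estimated fragments were nearly equal in the libraries (1710 and 1712 for MCM5, 1046 and 1026 for MCM6), so their FPKM differ by about as much as the estimated library sizes do.

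E2F factors bind short motifs in the promoters of replication genes, and the 250 bases before the start of each gene were read from the TAIR10.1 genome of RefSeq for such letters. The motifs searched on both strands were TTTCCCGC, TTTGGCGC, TTTGGCGG, TTTCCCGG, TTTCGCGC and TTTGCCGC. Of the 8 S-phase genes 5 held a match, MCM2 to MCM6, against 2.33% of 27561 protein-coding genes with such a window and 2.43% of expressed ones. The windows of MCM7, PCNA1 and PCNA2 held none. Of the G1 group 2 held a match, and of the mitotic group 0. The windows of PCNA1, PCNA2, RBR1, CDKB1;1, CDKB2;1 and CYCD3;1 include exon of another gene and were counted like the rest. The windows of MCM2 (chr1:16969964-16970213, plus strand), MCM5 (chr2:3527501-3527750, minus strand) and MCM6 (chr5:18010668-18010917, minus strand) are given to show the match, in capitals. In MCM2 it lies 7 to 14 bases before the annotated start, in MCM5 12 to 19 bases and in MCM6 39 to 46 bases.

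MCM2: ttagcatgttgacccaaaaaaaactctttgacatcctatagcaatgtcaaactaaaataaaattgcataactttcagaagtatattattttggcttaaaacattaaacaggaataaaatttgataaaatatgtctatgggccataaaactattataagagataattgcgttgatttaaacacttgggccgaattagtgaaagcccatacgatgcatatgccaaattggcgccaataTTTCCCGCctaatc
MCM5: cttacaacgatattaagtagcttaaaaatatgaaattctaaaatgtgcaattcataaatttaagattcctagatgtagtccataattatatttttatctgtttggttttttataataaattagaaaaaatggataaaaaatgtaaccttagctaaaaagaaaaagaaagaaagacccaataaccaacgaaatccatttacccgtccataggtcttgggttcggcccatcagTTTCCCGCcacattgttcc
MCM6: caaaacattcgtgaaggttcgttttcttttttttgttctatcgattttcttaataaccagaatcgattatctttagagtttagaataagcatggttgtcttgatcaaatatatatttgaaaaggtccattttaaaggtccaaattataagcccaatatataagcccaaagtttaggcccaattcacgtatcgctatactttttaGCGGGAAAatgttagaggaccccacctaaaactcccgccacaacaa

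A match is only a run of letters, and a window with none says nothing about E2F at that gene.

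Among the mitotic genes the B-type CDKs, the Aurora kinases and KNOLLE were all higher in the myb98 library, and none of the 18 expressed genes of the group passed the rule. B-type CDKs are plant-specific kinases of late S phase to mitosis. CDKB1;1 (AT3G54180) had 25.7 FPKM in the myb98 library and 13.8 FPKM in the WT library, and CDKB1;2 (AT2G38620) had 15.8 and 8.87 FPKM. CDKB2;2 (AT1G20930) had 17.4 and 9.75 FPKM, with a ratio of 1.78 like that of CDKB1;2. CDKB2;1 (AT1G76540), the most abundant of the 4 in both libraries, differed less, at 27.2 and 22.0 FPKM, a ratio of 1.23. The transcripts within each pair are 84.9% (CDKB1) and 86.0% (CDKB2) identical over 707 and 957 nt, and exons of all 4 overlap those of a gene on the opposite strand. AT3G54190, which overlaps 71 nt of CDKB1;1, was itself at 20.16 FPKM in the myb98 library and 20.57 FPKM in the WT library. The partners of the CDKB2 genes were listed at 0 in both libraries.

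AUR1 (AT4G32830) and AUR2 (AT2G25880), Aurora kinases of the spindle and of division plane orientation, had similar ratios. AUR1 stood at 14.9 FPKM in the myb98 library and 9.89 FPKM in the WT library (a ratio of 1.5), and AUR2 at 8.02 and 4.82 FPKM (a ratio of 1.66). Their transcripts are 84.8% identical over 828 nt. AUR1 shares 290 nt of exon with AT4G32840 on the opposite strand, which was at 5.10 FPKM in the myb98 library and 5.70 FPKM in the WT library. The 877 nt that AUR2 shares belong to AT2G25890, listed at 0 in both. KNOLLE (AT1G08560), the syntaxin that fuses vesicles at the forming cell plate, was at 32.6 and 24.7 FPKM (a ratio of 1.32). It shares 464 nt with AT1G08550 on the opposite strand, a gene at 1.55 and 2.34 FPKM. In levels it was the fourth of the 42 genes in the myb98 library and the third in the WT library.

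The B-type cyclins among the members fell into their subfamilies by the sign of the ratio. The 4 CYCB1 members, of a subfamily that marks cells in G2 and mitosis, were all higher in the myb98 library. CYCB1;1 (AT4G37490) had 10.2 FPKM in the myb98 library and 7.30 FPKM in the WT library, and CYCB1;3 (AT3G11520) had 15.0 and 9.43 FPKM. Closer to the WT values were CYCB1;2 (AT5G06150), at 17.0 and 15.9 FPKM, and CYCB1;4 (AT2G26760), at 7.59 and 6.81 FPKM. The CYCB2 cyclins were all lower. CYCB2;3 (AT1G20610) had 10.3 FPKM in the myb98 library and 12.1 FPKM in the WT library, and CYCB2;4 (AT1G76310) had 5.88 and 6.99 FPKM. CYCB2;2 (AT4G35620) had 3.57 and 3.96 FPKM, and CYCB2;1 (AT2G17620) had 1.78 and 2.40 FPKM. The log2 ratios ran from 0.09 to 0.62 for the CYCB1 members and from -0.29 to -0.12 for the CYCB2 members, so these did not overlap. Each difference is small and none has a replicate check. Of all expressed genes, 49.6% were higher in the myb98 library. A stretch of 386 nt in CYCB1;2 is 97.9% identical to AT1G34460 (CYCB1;5), a further B1-type cyclin gene that is not a member. It was at 0.240 FPKM in the myb98 library and 0.648 FPKM in the WT library. Its log2 ratio of -0.41 lay below those of all CYCB2 members, so the split by sign does not extend to it. Being under 1 FPKM in both libraries, it was not counted as expressed.

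A-type cyclins were mixed. CYCA1;1 (AT1G44110), a cyclin of G2 and mitosis, had 11.8 FPKM in the myb98 library and 7.17 FPKM in the WT library, a ratio of 1.65. CYCA2;3 (AT1G15570), which acts with CDKB1;1 to hold back endoreduplication, had 15.2 and 18.6 FPKM, and CYCA2;4 (AT1G80370) had 2.87 and 3.39 FPKM. CYCA2;1 (AT5G25380) was under 1 FPKM in both, at 0.361 and 0.226 FPKM, or about 29.7 and 21.2 fragments, and it was not counted in either direction. All 6 expressed mitotic genes that were lower in the myb98 library belong to CYCB2 or CYCA2. Leaving these subfamilies out was a division made after their values were seen. The other 12 mitotic genes were thus all higher by construction, with a median log2 ratio of 0.58.

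**Figure D2:**
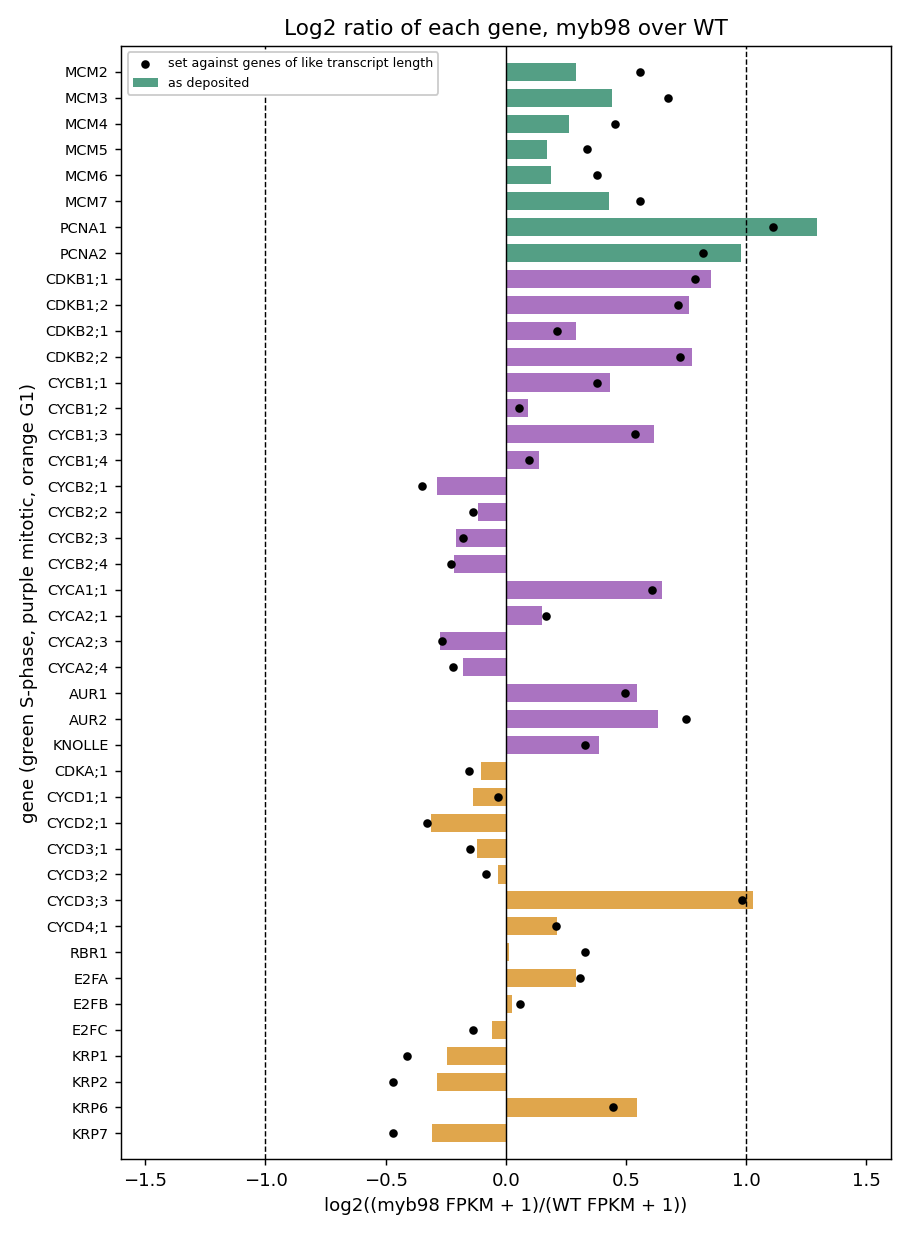
Log2 ratio of each gene, myb98 over WT, with a pseudocount of 1 FPKM. Bars show the deposited values, black points the value after the median of genes of like transcript length was subtracted, and dashed lines the rule at 1 in size. All S-phase bars lie above 0, CYCB1 and CYCB2 lie on opposite sides of it, and PCNA1 and CYCD3;3 cross the line at 1.

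The promoters of many mitotic genes carry the mitosis-specific activator (MSA) element, which MYB3R factors bind, and its core AACGG was searched on both strands. Of the 19 mitotic genes 12 held it in the 250 bases before the start, against 20.6% of all protein-coding genes and 22.8% of expressed ones. At least 2 copies were held by 8 of them, against 3.62% of all protein-coding genes and 4.45% of expressed ones. Copies in the CYCB1 and CYCB2 subfamilies were alike although their ratios were not. Of the CYCB1 genes 2 held 3 copies, 1 held 4 and 1 held none, and of the CYCB2 genes 3 held 3 copies and 1 held none. The core is not particular to mitotic genes, since 6 of 15 G1 genes held it, with 6 copies in KRP1 and 3 in KRP7. Only the RBR1 window held both an E2F-type match and this core, and they did not overlap there. The windows of CYCB1;1 (chr4:17624309-17624558, minus strand), CYCB1;2 (chr5:1861704-1861953, minus strand) and CYCB2;3 (chr1:7137829-7138078, minus strand) are given so that the copies, in capitals, can be set side by side.

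CYCB1;1: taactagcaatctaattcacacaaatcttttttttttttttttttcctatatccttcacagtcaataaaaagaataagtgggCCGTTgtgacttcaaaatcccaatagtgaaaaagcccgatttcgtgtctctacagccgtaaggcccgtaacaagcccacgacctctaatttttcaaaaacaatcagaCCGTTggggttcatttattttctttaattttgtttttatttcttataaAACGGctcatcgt
CYCB1;2: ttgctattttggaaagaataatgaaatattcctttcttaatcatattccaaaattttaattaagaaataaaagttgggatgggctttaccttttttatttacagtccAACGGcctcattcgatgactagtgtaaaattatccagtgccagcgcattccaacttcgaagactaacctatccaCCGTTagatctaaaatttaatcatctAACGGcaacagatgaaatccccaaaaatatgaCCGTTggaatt
CYCB2;3: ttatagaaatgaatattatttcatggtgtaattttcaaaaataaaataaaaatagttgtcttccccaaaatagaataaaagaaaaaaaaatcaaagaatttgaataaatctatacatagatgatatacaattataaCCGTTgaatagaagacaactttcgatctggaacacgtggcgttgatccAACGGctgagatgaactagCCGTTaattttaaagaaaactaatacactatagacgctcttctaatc

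**Figure D3:**
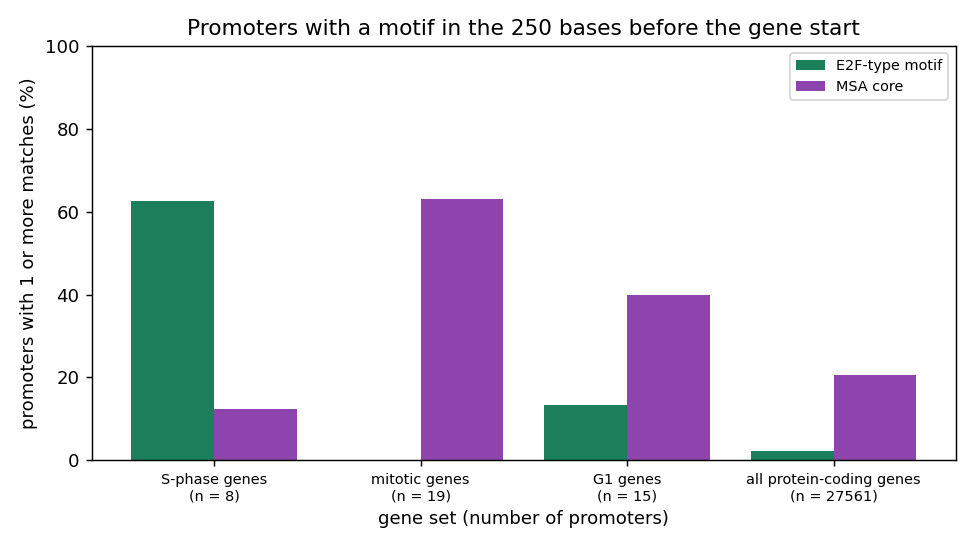
Percent of promoters with at least 1 match to an E2F-type motif or to the MSA core in the 250 bases before the gene start, for the 3 groups and for all protein-coding genes. The E2F-type bar reaches 62.5% for the S-phase genes and the MSA bar 63.2% for the mitotic genes, against 2.33% and 20.6% of all protein-coding genes.

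Of the 15 G1 control genes 1 rose, CYCD3;3, and the group as a whole lay near 0, with log2 ratios from -0.31 to 1.03. CYCD3;3 (AT3G50070, chromosome 3, 18565134 to 18566834, minus strand, 4 exons) had 106 FPKM in the myb98 library and 51.5 FPKM in the WT library. Its rise of 2.06-fold rests on about 6500 and 3591 fragments, and its exons overlap those of no other gene. Its log2 ratio was 0.97 with a pseudocount of 5 FPKM and 0.98 against genes of like length, both just under the rule. CYCD3 cyclins promote division and restrain endoreduplication, and the other genes of this subfamily were close to their WT values. CYCD3;2 (AT5G67260) had 42.2 FPKM in the myb98 library and 43.2 FPKM in the WT library, and CYCD3;1 (AT4G34160) had 11.2 and 12.2 FPKM. Of all transcripts, CYCD3;2 is the nearest to the risen gene, at 73.6% identity over 1194 nt. The CYCD3;1 exons overlap 40 nt of AT4G34150 on the same strand, a gene at 22.6 FPKM in the myb98 library and 9.22 FPKM in the WT library. Of the summed FPKM of all 10 D-type cyclins, 4 of which are not among the 42 genes, CYCD3;3 gave 57.4% in the myb98 library and 38.8% in the WT library.

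The remaining D-type cyclins and CDKA;1 differed little. CYCD1;1 (AT1G70210) had 15.2 FPKM in the myb98 library and 16.8 FPKM in the WT library. CYCD2;1 (AT2G22490) was low, at 1.95 and 2.65 FPKM, and so was CYCD4;1 (AT5G65420) at 3.0 and 2.46 FPKM. Their partner CDKA;1 (AT3G48750), the main CDK of the cell cycle, had 17.7 and 19.1 FPKM. RBR1 (AT3G12280) had 13.3 FPKM in the myb98 library and 13.2 FPKM in the WT library, the log2 ratio nearest to 0 of the 42 genes before transcript length is considered.

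Levels of the E2F factors were also near those of the WT library. The activator type E2FA (AT2G36010) had 4.47 FPKM in the myb98 library and 3.47 FPKM in the WT library, and E2FB (AT5G22220) had 2.30 and 2.24 FPKM. E2FC (AT1G47870), a repressor type, had 6.65 and 6.97 FPKM and was the most abundant of them in both libraries. The 4 KRP members were low in both libraries. KRP7 (AT1G49620) had 3.66 FPKM in the myb98 library and 4.77 FPKM in the WT library, KRP1 (AT2G23430) 0.909 and 1.26 FPKM, and KRP2 (AT3G50630) 1.2 and 1.68 FPKM. KRP6 (AT3G19150) alone of these 4 was higher in the myb98 library, at 2.81 and 1.61 FPKM, about 153 and 99.9 fragments.

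**Figure D4:**
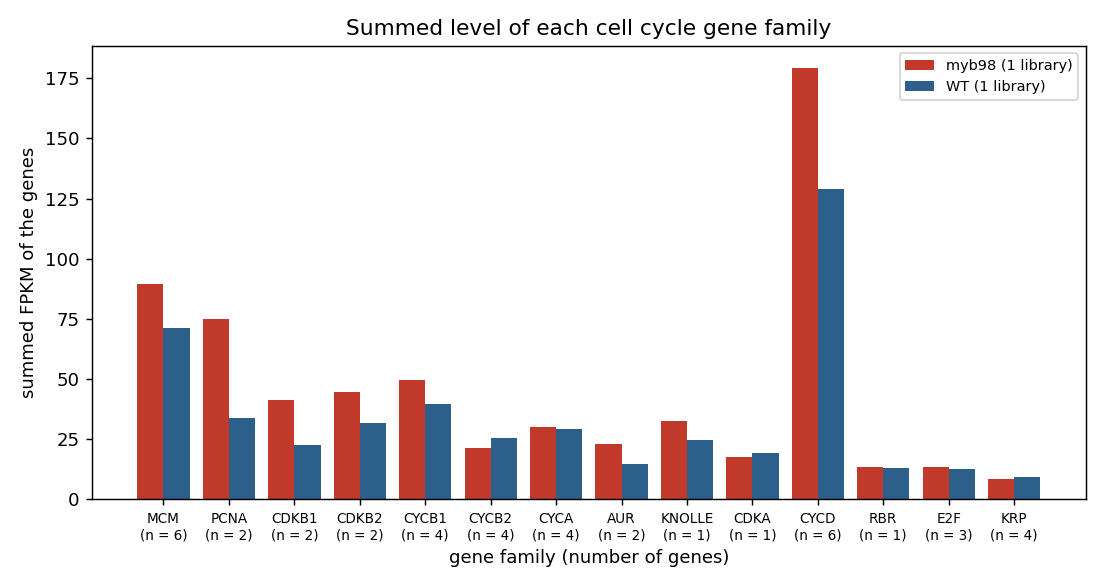
Summed FPKM of each gene family, with the myb98 library left of the WT library and the number of genes under each name. The PCNA pair sums to 75.04 FPKM in the myb98 library and 34.0 FPKM in the WT library, and the tall CYCD bars (179 and 129 FPKM) differ mainly through CYCD3;3.

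Ratios taken inside a library do not depend on how the libraries were scaled to each other, and the pairs below were chosen after the values were seen. The PCNA sum was 0.840 times the MCM sum in the myb98 library and 0.478 times in the WT library. This ratio is not adjusted for transcript length, which differs between the families. Genes of like length had a median log2 ratio of 0.18 for PCNA1, 0.16 for PCNA2 and -0.26 to -0.13 for the MCM genes. The part of this in the ratio of sums was not tested. The CDKB1 sum was 2.35 times the CDKA;1 level in the myb98 library and 1.19 times in the WT library, and the CDKB2 sum 2.52 and 1.67 times. For CYCB1 over CYCB2 the ratio of sums was 2.31 in the myb98 library and 1.55 in the WT library. The sum of the 4 KRP members was 0.486 times CDKA;1 in the myb98 library and 0.489 times in the WT library, and RBR1 was 0.755 and 0.693 times CDKA;1. With KRP3, KRP4 and KRP5, which are not among the 42 genes, the KRP sum was 1.84 times CDKA;1 in the myb98 library and 1.59 times in the WT library.

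Transcript length moved with the ratio in this table as a whole. Among the genes at 5 FPKM or more in at least 1 library, the median log2 ratio was 0.37 for 1286 genes of 600 to 1000 nt, 0.03 for 2579 genes of 1500 to 2000 nt and -0.28 for 771 genes of 3000 to 4000 nt. The part of this trend in any member's value was not tested beyond subtracting the median of genes of like length. Set so against the trend, PCNA1 had a log2 ratio of 1.11 and CYCD3;3 one of 0.98, which ends the call of the cyclin. The MCM transcripts are long, at 2604 to 3158 nt, and their log2 ratios were 0.34 to 0.68 after the subtraction, all above the deposited ones. RBR1, the longest at 3850 nt, stood at 0.33 instead of 0.01. The group medians became 0.56 for S-phase, 0.27 for mitotic and -0.08 for G1 genes, so their order was kept.

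**Figure D5:**
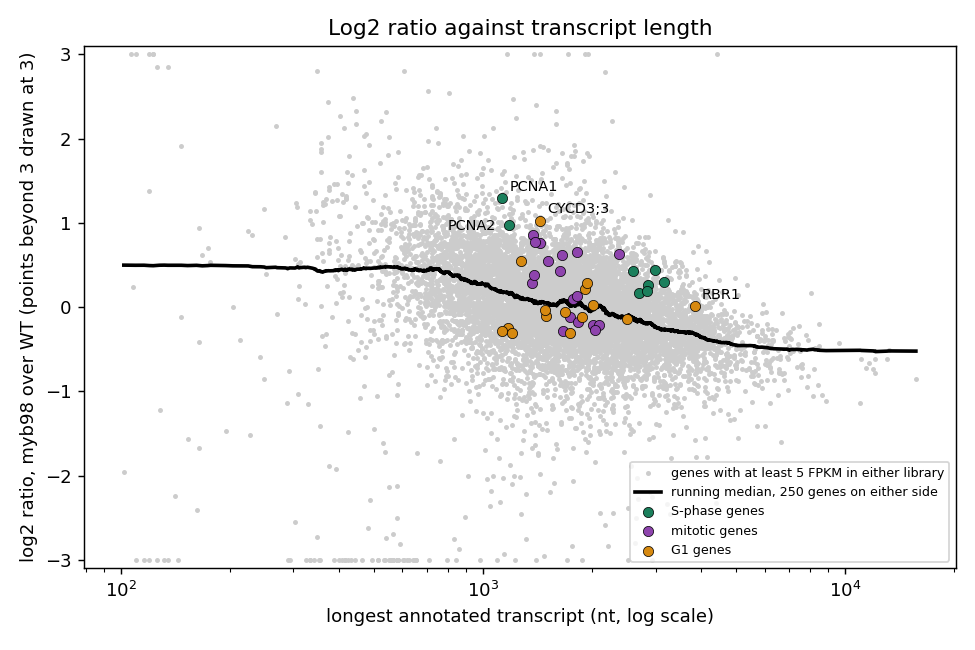
Log2 ratio, myb98 over WT, against the length of the longest annotated transcript on a log axis, for genes at 5 FPKM or more in at least 1 library (grey, values beyond 3 in size drawn at 3) and for the 41 expressed members (coloured by group). The black line is the running median over a gene and the 250 genes on either side, which falls with length, and the S-phase genes all lie above it.

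A further 73 cell cycle genes outside the 42 were looked up by identifier, of which 67 were expressed, 4 rose and 0 fell. Over all expressed genes 2.95% rose and 2.74% fell. Their median log2 ratio was 0.21. Of 24 expressed genes for replication licensing and the fork, 1 rose, and their median was 0.43. ORC2 (AT2G37560), a subunit of the origin recognition complex, rose to 3.57 FPKM in the myb98 library, against 1.08 FPKM in the WT library. The ribonucleotide reductase gene TSO2 (AT3G27060) had 48.1 and 25.05 FPKM, the thymidine kinase gene TK1A (AT3G07800) 6.72 and 3.18 FPKM, and the replisome factor gene ETG1 (AT2G40550) 15.6 and 8.36 FPKM.

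Of 16 expressed genes for mitosis and cytokinesis 0 passed the rule, and their median was -0.12. The centromeric histone gene HTR12 (AT1G01370) had 13.7 FPKM in the myb98 library and 6.83 FPKM in the WT library. The spindle factor gene TPX2 (AT1G03780) had 5.43 and 9.20 FPKM, KEULE (AT1G12360), whose product works with KNOLLE, 8.46 and 12.4 FPKM, and CDC20.2 (AT4G33260), for an activator of the anaphase-promoting complex, 16.2 and 22.8 FPKM. The medians of these 16 genes and of the mitotic members thus lay on opposite sides of 0. Against genes of like length they were -0.03 and 0.27, in that order, so that of the 16 genes lay close to 0.

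Other cyclins had 8 expressed genes, of which 0 passed. CYCA3;2 (AT1G47210) had 13.4 FPKM in the myb98 library and 7.66 FPKM in the WT library, CYCA3;1 (AT5G43080) 5.59 and 3.04 FPKM, CYCD4;2 (AT5G10440) 2.54 and 1.14 FPKM, and CYCA1;2 (AT1G77390) 3.09 and 3.73 FPKM. Among 19 expressed genes for other regulators 3 rose, beside 2.95% of all expressed genes, with a list median of 0.07. CKS2 (AT2G27970), a docking subunit of CDKs, had 56.6 FPKM in the myb98 library and 21.4 FPKM in the WT library. The CDK inhibitor genes KRP3 (AT5G48820) and SMR4 (AT5G02220) had 8.78 and 2.91 FPKM, and 1.8 and 0.149 FPKM. DEL1 (AT3G48160), an atypical E2F, did not pass, at 4.39 and 2.24 FPKM. The calls of CKS2 and SMR4, with transcripts of 762 and 736 nt, ended against genes of like length (0.93 and 0.84), while those of ORC2 (1.09) and KRP3 (1.14) held. SMR4 had about 56.4 fragments in the myb98 library and 5.31 in the WT library, and the CKS2 exons overlap those of AT2G27980 on the same strand.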

How the data were processed

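The authors deposited a table of FPKM (fragments per kilobase of transcript and library size) with 1 column per library. The header names no unit, which was read from the tools and from values spaced by transcript length. Per the submitters' processing notes, the tools were TopHat2 2.0.14 and Cuffdiff 2.2.1 with genome TAIR10. The annotation version, the strandedness and the scaling between libraries were not given in the sources used here. Without a stated strand, reads from the exon stretches that 14 members share with an opposite-strand gene, 21 to 877 nt long, cannot be assigned. Of 35548 identifiers 1991 were blank. Lengths, coordinates and promoters came from TAIR10.1 (RefSeq), overlaps from bedtools 2.31.1 and transcript identity from BLAST 2.17.0. The spacing of low values, in genes with a lone transcript of at least 1500 nt, gave the depth. The log2 ratio used a pseudocount of 1 FPKM, which understates the change of low genes. The length comparison subtracted a running median over a gene and 250 genes on either side. Calculations used Python 3.11.15 and were checked on simulated data. Members and lists were chosen with earlier results of these data known. Named were all 42 members and, of each further list, the 4 expressed genes with the largest log2 ratio in size. The promoter window of 1 member is not reported here. Alternative pseudocounts, minimum levels, scalings and size rules were tried.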

Additional observations from a re-analysis of the deposited data

How the results depend on the processing

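Alternative settings were a pseudocount of 0.1 or 5 FPKM, a minimum of 5 FPKM or none, centring on the median gene, subtraction of the length trend, and rescaling to the same total over nuclear protein-coding genes. Under these 7 settings the median log2 ratio ran from 0.29 to 0.56 for S-phase, 0.27 to 0.43 for mitotic and -0.09 to -0.03 for G1 genes, and from 0.13 to 0.31 for all members, so no group median changed sign. The 2 risen members became 1 (PCNA1) with a pseudocount of 5 and with the length trend subtracted, 3 with a pseudocount of 0.1 and with rescaling (PCNA2 added), and 0 under a rule of log2 2 in size. No member fell under any of these settings. Of the single members, CYCD3;2 (0.01 after rescaling) and RBR1 (-0.01 after centring) changed sign, both near 0. The 4 risen further cell cycle genes became 1 with a pseudocount of 5, 2 with a minimum of 5 FPKM and with the length trend subtracted, 6 with a pseudocount of 0.1, 7 with rescaling and 0 under a rule of log2 2 in size. With the length trend subtracted 1 of the further genes fell, SIM (AT5G04470), named after its values were seen. It had 2.65 FPKM in the myb98 library and 5.03 FPKM in the WT library (log2 -0.72, or -1.14 so adjusted). Among all 16303 expressed genes 258 rose and 478 fell with the trend subtracted. Except where fewer genes were counted or the weight of the pseudocount was changed by construction, the cause of these shifts was not tested. No paired analysis was possible because each genotype has 1 library, and for the same reason no library could be left out.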
